A study of Mus musculus with 105 samples.

Results

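In mouse CD4+ T cells whose transcription had been blocked for 3 h, 144 genes that had almost no reads at the start of the block had accumulated reads. A gene was taken when its raw exon counts, summed over the 3 replicate libraries of a group, were 5 or fewer at 0 h and 30 or more at 3 h in activated cells with triptolide, activated cells with DRB or resting cells with triptolide, all without a translation inhibitor. Spike-in RNAs and symbols starting with Hist, Zfp, Trav or Trbv were left out, which removed 1 gene of 145 and left 144 of the 22322 genes of the table. Triptolide in activated cells selected 113 of them, DRB in activated cells 52, and triptolide in resting cells 55. The selection came from the triptolide arms alone for 92 genes, from the DRB arm alone for 21 and from both agents for 31, and 20 genes were selected in all 3 arms. Of the 144 genes, 142 are annotated as protein coding, 1 as a long intergenic RNA and 1 as a polymorphic pseudogene. The counts at 0 and 3 h of those 3 arms chose the genes and are given only as a description. Tests were run on libraries that the selection did not use.

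RNA polymerase II opens the DNA at a promoter, pauses shortly downstream, elongates through the gene and stops after the transcript has been cut at a polyadenylation site, usually a hexamer such as AATAAA or ATTAAA followed by less conserved elements. Triptolide binds the XPB subunit of TFIIH and blocks the opening of the promoter, and DRB inhibits CDK9, the kinase of P-TEFb that releases the paused polymerase. Both agents are used to stop the supply of new mRNA so that the decay of what is already there can be followed. A polymerase that fails to stop at the end of a gene reads into what lies downstream, which is known from stressed, infected and cancer cells as readthrough.

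Spleens and lymph nodes of 6-week-old C57BL/6J female mice gave the CD4+ T cells, which were purified by negative selection. Beads with CD3 and CD28 antibodies activated some of the cells, and the resting cells got none. The groups used here were activated cells without inhibitor at 0, 1 and 3 h, with triptolide (25 µM) or DRB (65 µM) at 0, 1 and 3 h, with cycloheximide (100 µg/ml) or harringtonine (2 µg/ml) alone at 1 and 3 h, and with each transcription inhibitor joined to each translation inhibitor at 1 and 3 h. Resting cells had the same groups without DRB, and every group had replicates 2, 3 and 4, for 35 groups in the table. The labels call the replicates biological without tying them to mice, so p-values measure the spread between these libraries. In such bulk RNA, fewer cells of a type and less RNA per cell cannot be told apart.

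The libraries held 6300 to 6479221 exon counts, with a median of 2135827. The lowest were replicate 3 of resting cells at 1 h of triptolide (6300) and replicate 3 of untreated activated cells at 0 h (141028). All 5 CD4 T cell markers found in the table were at or above 1 CPM (exon counts relative to library sizes scaled with TMM factors) in every group looked at. The summed level of the 6 myeloid markers was 4.35 to 7.77 CPM at 0 h and 15.0 to 32.3 CPM at 3 h of triptolide in activated cells, and 2.01 to 7.69 and 9.22 to 23.7 CPM in resting cells. S100a8 was at 0 in all 4 of these groups and had at most 1 count in a library of the DRB arm at 0 and 3 h. Adgre1, one of the 6, is itself among the 144 genes. In the DRB arm myeloid markers went from 4.67 to 6.12 CPM at 0 h to 10.1 to 14.6 CPM at 3 h. The 4 B cell markers found summed to 1.56 to 13.1 and 3.80 to 17.9 CPM at 0 and 3 h of DRB, and to 1.45 to 11.4 and 6.96 to 18.4 CPM with triptolide in activated cells. Cd79a, one of them, had a mean of 1.34 CPM at 0 h and 8.17 CPM at 3 h of DRB, and of 5.22 CPM with DRB and harringtonine against 0.585 CPM with harringtonine. Epithelial markers went from 3.80 to 14.03 CPM at 0 h to 10.4 to 15.3 CPM at 3 h of triptolide in activated cells, and NK cell markers stayed at or below 1.63 CPM there. Whether reads from other cells take part in the results was not tested. Replicate 3 had the lowest summed level of the 144 genes in 11 of the 12 activated groups with a transcription inhibitor at 1 or 3 h, and replicate 2 the lowest in all 6 resting ones.

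Most of the genes lie downstream of genes that T cells use, and the sequences that close those upstream genes are shown because that is where their annotated transcripts are cut. Each is the last 30 bases of the annotated transcript that reaches farthest downstream on GRCm38 (GENCODE M21), 5′ to 3′ on the gene's strand, with an AATAAA or ATTAAA in capitals. The ends printed are those of Dock2 at chr11:34226815-34226844, Ascc3 at chr10:50851456-50851485, Tnik at chr3:28675829-28675858, Dlg1 at chr16:31875100-31875129 and Sik3 at chr9:46224165-46224194, which precede Foxi1, Sim1, Slc2a2, Meltf and Apoa1. Those of B2m at chr2:122153054-122153083, Rabggtb at chr3:153907287-153907316, Rpl21 at chr5:146837003-146837032 and Sf3a2 at chr10:80804895-80804924 precede Trim69, Msh4, Rasl11a and Amh, which only DRB selected.
Dock2, before Foxi1: accgtttgaggtttgcttaaaaaaaaaaaa
Ascc3, before Sim1: cctgtataaagtgcatcctgttcacattca
Tnik, before Slc2a2: tcttctcataaagatgctgtgacaaagaaa
Dlg1, before Meltf: tcatctaagAATAAAtatctttttggtcag
Sik3, before Apoa1: AATAAAaacctgattatgtactaacgctga
B2m, before Trim69: ttttgttacttttactaaaAATAAAaaact
Rabggtb, before Msh4: ataatttaAATAAAggtcaaaatcagtggc
Rpl21, before Rasl11a: gttagcATTAAAtgcactggagagcttcaa
Sf3a2, before Amh: ttgagcctATTAAAcagcctcccccgtgtc

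Of the 123 expressed genes that lie nearest upstream of the 144, 54 (43.9%) had AATAAA in their last 30 bases and 61.0% had AATAAA or ATTAAA, searched on the gene's strand only. Over all 8845 expressed genes the shares were 53.7% and 66.9%. A missing hexamer says only that these letters are not in this window.

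The promoters of Foxi1, Sim1 and Slc2a2 are printed because these are among the 4 most abundant of the 144 genes at 3 h of triptolide in activated cells and are all known from other tissues. Foxi1 encodes a forkhead factor of the inner ear and of acid-secreting kidney cells, Sim1 a bHLH-PAS factor of the hypothalamus, and Slc2a2 the glucose transporter GLUT2 of liver and pancreatic beta cells. Each stretch runs from 250 bases before to 50 after a RefSeq start (GRCm38.p6), on the gene's strand. Foxi1 is at chr11:34208040-34208339, Sim1 at chr10:50895401-50895700, 897 bases from the GENCODE start, and Slc2a2 at chr3:28697653-28697952. Capitals mark TATAAA or GGGCGG as found on either strand.
Foxi1: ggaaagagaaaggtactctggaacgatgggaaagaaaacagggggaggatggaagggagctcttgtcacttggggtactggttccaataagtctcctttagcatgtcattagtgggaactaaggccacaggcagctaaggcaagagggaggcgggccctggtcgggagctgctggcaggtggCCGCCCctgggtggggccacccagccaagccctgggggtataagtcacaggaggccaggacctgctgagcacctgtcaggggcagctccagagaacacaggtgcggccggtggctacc
Sim1: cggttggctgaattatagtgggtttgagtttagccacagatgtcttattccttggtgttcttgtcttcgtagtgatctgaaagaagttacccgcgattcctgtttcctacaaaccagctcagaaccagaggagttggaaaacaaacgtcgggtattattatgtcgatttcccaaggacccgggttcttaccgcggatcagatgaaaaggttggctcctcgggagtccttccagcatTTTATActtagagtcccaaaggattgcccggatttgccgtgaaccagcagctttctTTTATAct
Slc2a2: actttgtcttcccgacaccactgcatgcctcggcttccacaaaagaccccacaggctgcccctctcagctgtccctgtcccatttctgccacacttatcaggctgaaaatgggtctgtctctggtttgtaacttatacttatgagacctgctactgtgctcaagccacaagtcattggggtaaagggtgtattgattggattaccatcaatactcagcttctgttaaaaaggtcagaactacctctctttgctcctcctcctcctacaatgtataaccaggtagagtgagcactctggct

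A RefSeq promoter was matched for 102 of the 144 genes. TATAAA on either strand was in 13.7% of them, in 19.2% of 7936 other near-silent genes and in 12.6% of 16353 promoters of all genes of the table. GGGCGG was in 45.1%, 29.5% and 48.4%, and the median number of CG dinucleotides was 9.5, 5 and 14. By GGGCGG and CG content the 144 genes lay between the other near-silent genes and all genes.

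In the arms that chose the genes, Foxi1 reached the highest level. Foxi1 (chr11:34204338-34208089, minus strand) had 1, 1 and 5 exon counts in the activated triptolide libraries at 0 h, 311, 20 and 206 at 1 h and 467, 166 and 257 at 3 h, or 255 ± 42.4 CPM (SD, n = 3) at 3 h. Its 7 counts at 0 h kept it out of that arm, and DRB (150 ± 97.6 CPM at 3 h) and resting triptolide (211 ± 83.0 CPM) selected it. All libraries at 3 h lay above all libraries at 0 h, and replicate 3 was far below the others at 1 h. Sim1 (chr10:50894754-50989152, plus strand) had no exon count at 0 h, 31, 4 and 14 counts at 1 h and 242, 62 and 168 at 3 h of triptolide in activated cells, which is 128 ± 17.2 CPM. In resting cells with triptolide its 4, 6 and 25 counts at 3 h came to 10.6 ± 7.47 CPM. Its 35 counts passed the threshold in resting cells too.

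**Figure D1:**
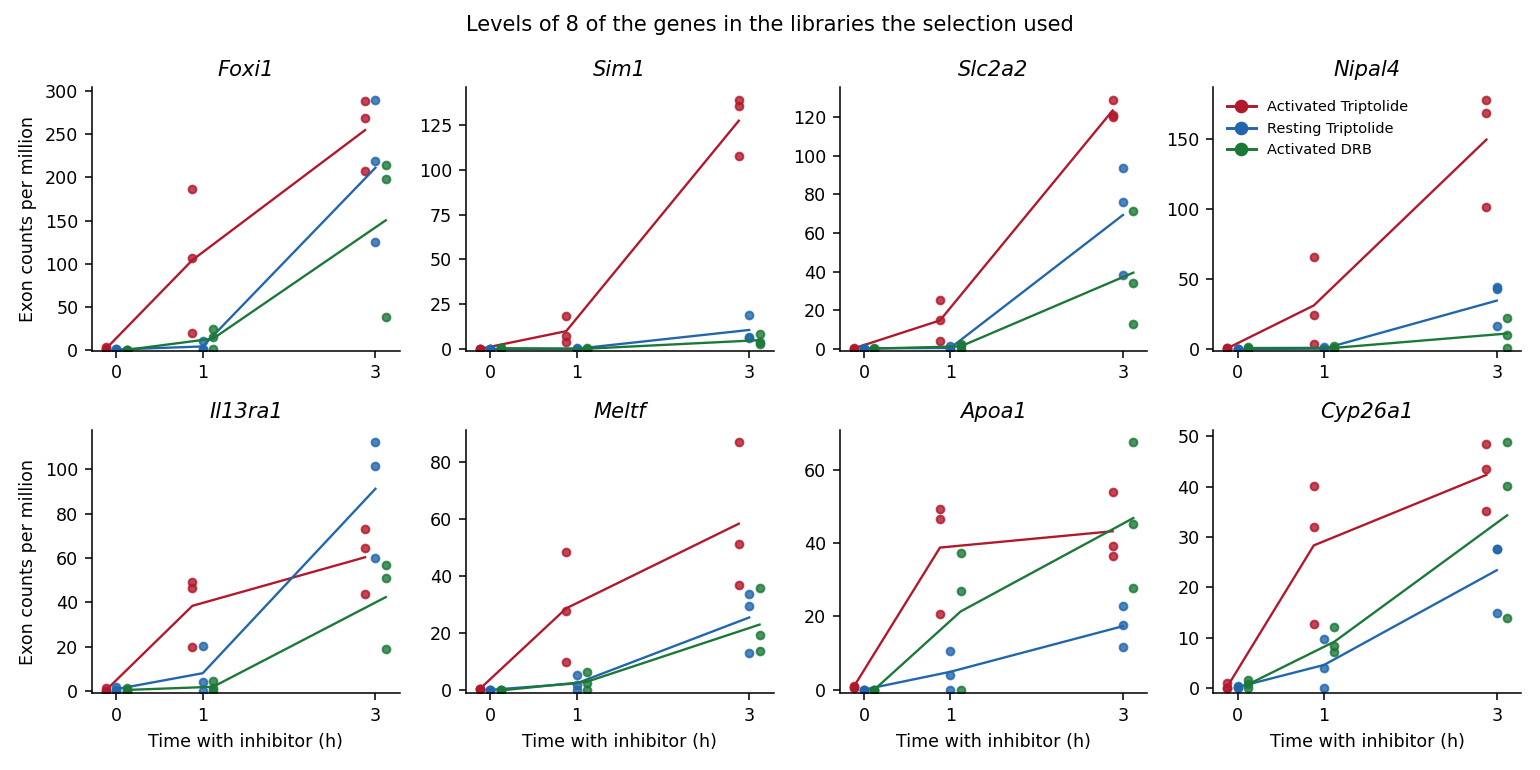
Exon level (CPM, vertical axes) of Foxi1, Sim1, Slc2a2, Nipal4, Il13ra1, Meltf, Apoa1 and Cyp26a1 against hours of inhibitor (horizontal axes) in activated cells with triptolide, activated cells with DRB and resting cells with triptolide. Points are libraries and lines join the means of 3. The genes start near 0, and Foxi1 reaches 255, 150 and 211 CPM at 3 h.

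The other genes with high levels at 3 h of triptolide in activated cells have known roles of several kinds. Nipal4, a magnesium transporter of the skin (chr11:46148155-46166508), had 309, 97 and 126 counts (149 ± 41.6 CPM). Slc2a2 (chr3:28697903-28731359) had 211, 69 and 160 (124 ± 4.90 CPM), and Cacng5, a regulator of AMPA receptors (chr11:107874605-107915055), 240, 67 and 141 (123 ± 13.3 CPM). The 3 genes were near one level in each of these 3 libraries. Cubn, an endocytic receptor of kidney and gut (chr2:13276338-13491813), had 122, 53 and 61 counts (70.5 ± 21.5 CPM), and Tnn, a tenascin of the extracellular matrix (chr1:160085029-160153580), 134, 37 and 70 (66.0 ± 10.4 CPM). Il13ra1, a subunit of the interleukin-13 receptor (chrX:36112110-36171259), had 112, 42 and 54 counts (60.4 ± 15.2 CPM), and 36, 103 and 146 (91.2 ± 27.7 CPM) in resting cells. Meltf, a membrane-bound iron carrier (chr16:31878810-31899020), had 89, 50 and 46 counts (58.4 ± 25.7 CPM). CPM is not divided by length, so it does not order the genes by the number of transcripts.

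DRB brought a partly different set of genes past the threshold. Apoa1, the main protein of high-density lipoprotein (chr9:46228580-46230466), had 82, 22 and 83 counts at 3 h of DRB (46.8 ± 19.9 CPM) and 68, 21 and 67 at 3 h of triptolide (43.2 ± 9.46 CPM). Its libraries overlapped between the agents. Trim69, a ubiquitin ligase of the TRIM family (chr2:122160700-122179027), went from 0, 0 and 1 counts to 12, 1 and 8 at 1 h and 31, 9 and 37 at 3 h of DRB (19.5 ± 9.59 CPM). Msh4, a protein of meiotic crossing-over (chr3:153857149-153906138), had 35, 2 and 57 exon counts and 273, 13 and 301 intron counts at 3 h of DRB. Replicate 3 was the low library for both. Amh, the anti-Müllerian hormone (chr10:80805243-80807648), was just inside the threshold with 17, 1 and 12 counts.

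At the edges of the rule the choice rested on 1 count. In activated cells with triptolide Gm9817, Rnf152 and Skor1 had 30 counts at 3 h and were kept, and Ank1, Kcnk13 and Strip2 had 29 and were not. With DRB Amh, Slc4a11 and Timm8a2 had 30, and Adad1, Rbm44 and Cacng5, which triptolide selected, had 29. In resting cells Slc22a13 had 30, Gm9821 and Slc7a3 had 31, and BC034090 and Fam71d had 28. A further 68 genes in activated triptolide, 24 in DRB and 22 in resting triptolide had 20 to 29 counts at 3 h from 5 or fewer. Another 24, 26 and 11 genes had 6 to 10 counts at 0 h and at least 5 times as many at 3 h.

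The summed level of the 144 genes was 78.4 ± 11.2 CPM at 0 h, 1139 ± 733 at 1 h and 3474 ± 556 at 3 h of triptolide in activated cells. DRB gave 53.4 ± 9.80, 294 ± 153 and 1338 ± 659 CPM, and triptolide in resting cells 53.8 ± 10.7, 294 ± 115 and 2047 ± 693 CPM. In the groups without a transcription inhibitor, which the rule did not use, the means lay between 31.5 and 107 CPM. The other near-silent genes also went from a summed 642 to 2698 CPM between 0 and 3 h of triptolide in activated cells.

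**Figure D2:**
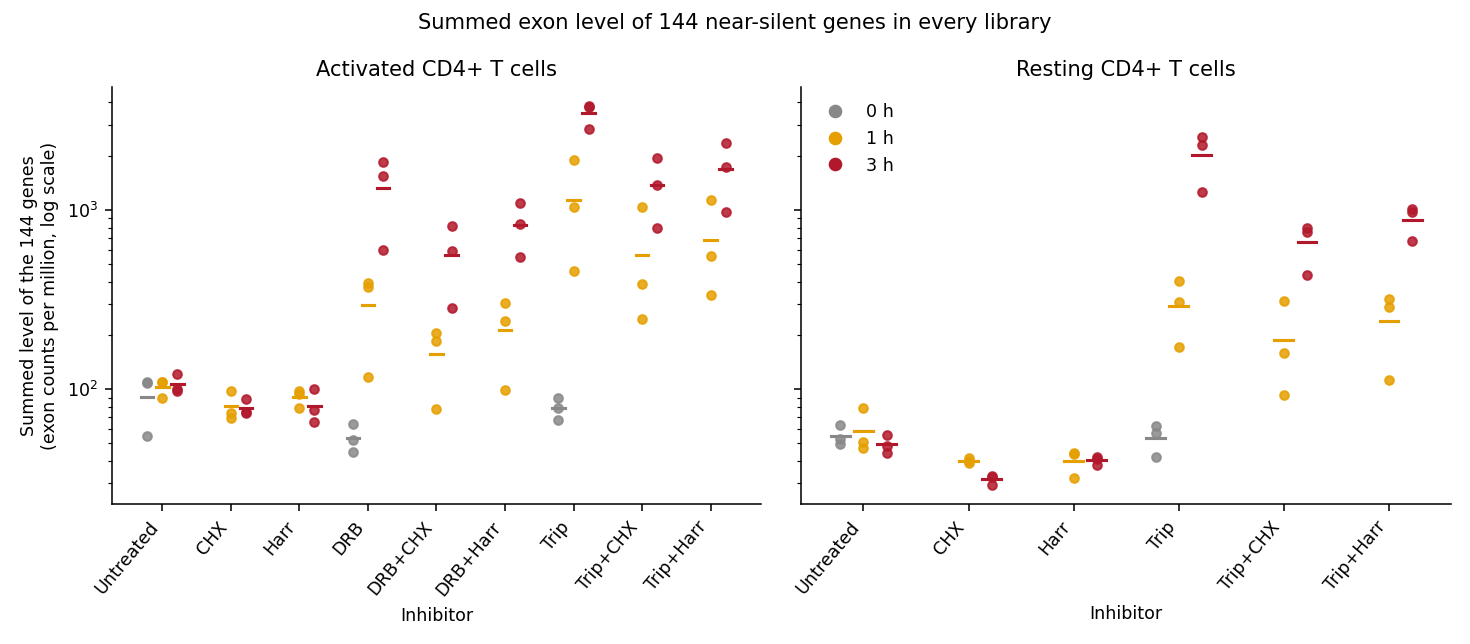
Summed exon level of the 144 genes (CPM, logarithmic axis) in each library, by group. Points are libraries and bars are the means of 3. Groups with triptolide or DRB at 3 h lie between 284 and 3813 CPM, and groups without either lie at or below 122 CPM.

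The question asked of libraries outside the rule was whether the same genes stood higher where a transcription inhibitor had been joined to cycloheximide or harringtonine than with that translation inhibitor alone. In activated cells at 3 h, triptolide with cycloheximide left 122 of the 144 genes higher than cycloheximide alone and 2 lower (edgeR quasi-likelihood test, Benjamini-Hochberg adjusted p under 0.05 over 10741 genes), against 27.1% higher and 25.8% lower of all genes tested. With harringtonine it was 124 higher and 0 lower, against 27.3% higher. Without libraries overlapping, 114 and 118 genes lay above their controls, against 27.8% and 29.3% of all genes. The summed exon counts of the 144 genes were 10973 against 674 with cycloheximide and 7551 against 734 with harringtonine. The median level was 5.69 CPM with triptolide and cycloheximide and 0.256 CPM with cycloheximide. Of the 144 genes 142 had enough reads to be tested, and since many passed through the groups where they are high, the counts are given of all 144. When only the 2 groups compared were fitted, 54 and 51 of the 144 had enough reads to be tested, and 52 (24.6% of all genes then tested) and 51 (27.4%) were higher. In that fit a gene near-silent in the control passes the filter mainly through the group where it is high. How many of the tested genes are higher in this and the later 2-group fits, in exons and introns, is thus largely set by the filter.

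Sim1 had 178, 36 and 240 exon counts with triptolide and cycloheximide and none with cycloheximide alone, so it was at least 172-fold higher (floor of 3 counts over the group, adjusted p = 3.73e-13). With harringtonine 293 counts stood against 1, a ratio of 614 with a 95% interval of 109 to 24314 from counting error (adjusted p = 2.26e-13). Foxi1 had 412, 74 and 384 counts against 1, 1 and 0, a ratio of 494 (136 to 4089; adjusted p = 1.64e-08). Every library with triptolide was above every control for both genes, and replicate 3 was again the lowest. Slc2a2 had 177, 49 and 286 counts against 0, 1 and 1, a ratio of 291 (80.1 to 2409; adjusted p = 2.87e-12). Cubn had 173 counts against 1 in all (adjusted p = 6.43e-13), and Tnn 200 against none, at least 75.8-fold higher.

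Genes with at least 4 control counts allow a fitted log2 change. Il13ra1 was higher by 5.92 ± 0.81 (log2 ± SE, n = 3, adjusted p = 3.05e-09) and Meltf by 5.24 ± 0.70 (adjusted p = 1.2e-09) with triptolide and cycloheximide. Il13ra1 had 101, 29 and 114 counts against 2, 0 and 2, and Meltf 61, 20 and 72 against 1, 2 and 1. The groups of both genes were far apart, with replicate 3 still above all controls. Cyp26a1, which breaks down retinoic acid, had 139 counts against none and was at least 52.7-fold higher (adjusted p = 7.96e-11). The gasdermins Gsdmc4, Gsdmc3, Gsdmc2 and Gsdmc, pore-forming proteins whose genes lie in one row, had 107, 81, 53 and 72 counts against 3, 0, 0 and 0. Near-identical family members can share or lose reads, so the split between these 4 genes is uncertain.

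In activated cells DRB with cycloheximide left 68 genes higher and 0 lower, against 22.3% higher of all genes, and DRB with harringtonine 81, against 25.8%. Groups did not overlap for 43 genes with cycloheximide and 73 with harringtonine, against 23.4% and 28.6%. The summed counts were 2338 against 674 and 4605 against 734. These comparisons have the same control libraries as those of triptolide. Cyp26a1 had 82 counts with DRB and cycloheximide against none, at least 65.9-fold higher (adjusted p = 6.3e-11). Il13ra1 was higher by 5.39 ± 0.87 (adjusted p = 3.79e-07) and Coro6, an actin-binding coronin, by 5.02 ± 0.76 (adjusted p = 5.85e-08). Apoa1 was higher by 6.10 ± 0.87 with DRB and harringtonine, from 4 counts to 57, 39 and 80 in the libraries (adjusted p = 3.03e-08). Without replicate 4 the counts of genes higher were 32 with cycloheximide and 44 with harringtonine. With only the 2 groups fitted they were 10 of 11 tested (20.3% of all genes) and 26 of 26 (25.9%).

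Resting cells showed 101 genes higher with triptolide and cycloheximide (22.9% of all genes) and 97 with triptolide and harringtonine (25.2%), and 0 lower in both. Groups did not overlap for 94 and 103 genes, against 28.2% and 30.1%, and the count with cycloheximide was 64 without replicate 4. With only the 2 groups fitted, all 27 genes then tested (25.9% of all genes) and all 33 (28.4%) were higher, which the filter on low counts largely sets. Coro6 was higher by 5.40 ± 0.60 (adjusted p = 5.48e-12), and Il13ra1 by 5.84 ± 0.74 (adjusted p = 5.59e-10) with 39, 108 and 62 counts against 3, 1 and 3. Foxi1 had 44, 206 and 124 counts against 0, 1 and 0. Over activated and resting cells and both translation inhibitors, 85 of the 144 genes were higher in all 4 triptolide comparisons, against 13.2% of all genes tested. Fam83e, Fam83f, Gm9817, Sh3d21 and Ugt1a6b were higher in none of the 6 comparisons.

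**Figure D3:**
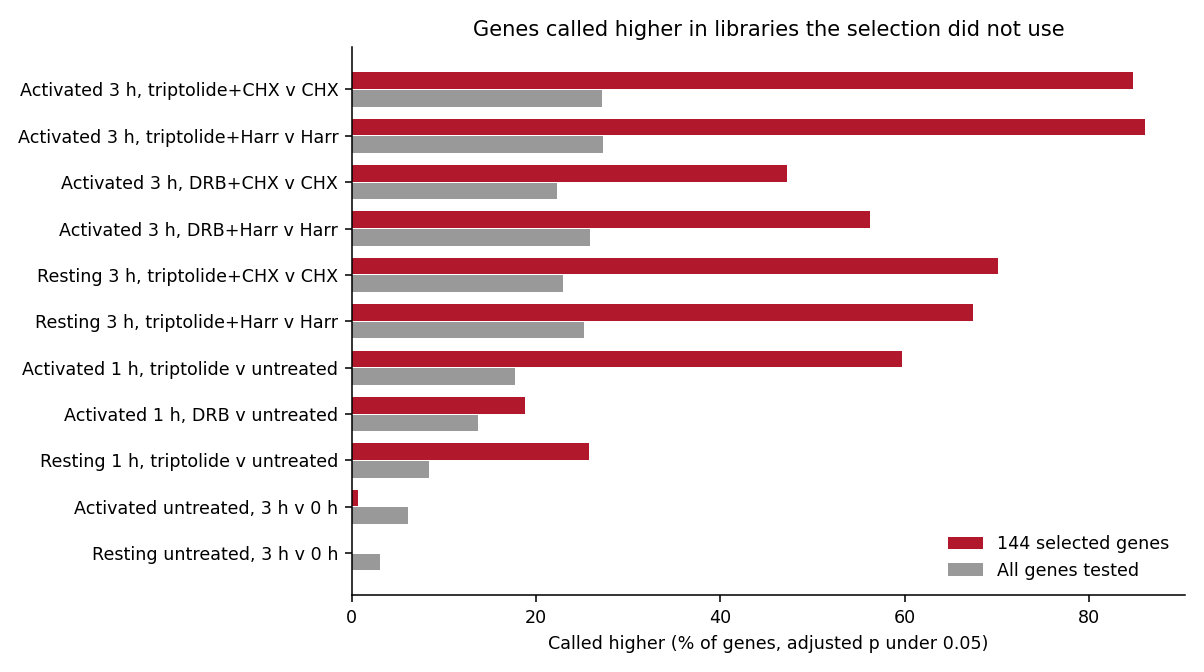
Share of genes called higher (percent, horizontal axis) in each of 11 comparisons outside the rule, for the 144 genes (red) and all genes tested (grey). The 144 genes lie above all genes in the 6 comparisons at 3 h and the 3 at 1 h, and below them in the 2 comparisons of untreated cells.

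Under TMM factors the typical gene does not change, and the changes above are relative to it. Scaled on the ERCC spike-ins, which count RNA per cell since the RNA came from equal numbers of cells, the median of all genes was lower by 1.54 to 1.96 on the log2 scale in the 6 comparisons. The numbers of the 144 genes higher were then 87 and 90 in activated cells with triptolide (cycloheximide, then harringtonine), 33 and 45 with DRB, and 66 and 59 in resting cells. Of all genes 1.42%, 1.76%, 0.717%, 1.16%, 1.16% and 0.959% were higher by that scaling, and 75.3% to 86.5% were lower. Genes lower among the 144 numbered 4, 5, 5, 6, 3 and 5. Slc7a3, a transporter of cationic amino acids, was higher by 1.21 ± 0.31 with triptolide and cycloheximide in activated cells and had a log2 change of -0.46 with spike-in scaling.

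The 21 genes that only the DRB arm had selected were looked at against the others. These labels follow the thresholds and do not mean that a gene responds to 1 agent. The triptolide-only genes Aph1b and Cpne2 had 6 counts each at 0 h of DRB, and 228 and 76 at 3 h. Cdkl4, a DRB-only gene, went from 6 to 38 counts with triptolide in activated cells. Coro6, also DRB-only, was higher in all 6 comparisons at 3 h, and the DRB-only gene Fam83e in none. With triptolide and cycloheximide 85 of the 92 triptolide-only genes, 6 of the 21 DRB-only genes and all 31 genes of both agents were higher. Of all genes tested 27.1% were. With DRB and cycloheximide the numbers were 22, 16 and 30, against 22.3% of all genes. The 6 of 21 with triptolide and the 22 of 92 with DRB were thus near the share of all genes in exons. Introns of some triptolide-only genes were higher with DRB and cycloheximide, as for Sim1 (123 counts against 3) and Cacng5 (150 against 6). Those of others were not, as for Cubn (12 against 22) and Tsga10 (14 against 44). A low exon share thus does not mean that DRB left these genes unchanged. The difference was tested directly between DRB with cycloheximide and triptolide with cycloheximide, at 3 h in activated cells, where 6 genes were higher with DRB (1.37% of all genes) and 37 lower (0.717%). With replicate numbers as blocks, kept apart for activated and resting cells, the numbers were 10 and 56. Every DRB library was above every triptolide library for 4 of the 144 genes, against 5.21% of all genes. DESeq2 called 17 genes in place of 43, coding-sequence counts 25, and the fit of the 2 groups alone 11 of 51 tested. Without replicate 4 only 6 of the 43 were called, and without replicate 2 it was 10.

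All 6 genes that stood higher with DRB were DRB-only genes. Trim69 was higher by 2.59 ± 0.71 (adjusted p = 0.0267) with 6, 1 and 23 counts against 3, 3 and 3, and its level in replicate 3 was 1.88 CPM with DRB and 1.92 CPM with triptolide. Amh had 37 counts against 3 (adjusted p = 0.000103) and Msh4 36 against 1 (adjusted p = 0.000427). The others were 1700001P01Rik with 33 against 2, Cracr2b with 25 against 2 and the olfactory receptor gene Olfr1395 with 28 against 3. Amh and Fam83e were also the 2 genes lower with triptolide and cycloheximide than with cycloheximide, with 3 counts against 23 (adjusted p = 0.00975) and 0 against 12 (adjusted p = 0.0051). Overlapping and neighbouring genes can share reads here, because the strand setting of the counting is not given in the sources used here, and Trim69 overlaps Patl2 on the other strand.

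Of the 37 genes lower with DRB, 34 were triptolide-only, and Nipal4, Slc2a2 and Acot12 were the others. Sim1 was lower by 3.96 on the log2 scale (SE 0.62, adjusted p = 7.37e-06), with 4, 0 and 9 counts against 178, 36 and 240. Nipal4 differed by -5.20 ± 0.94 (adjusted p = 9.24e-05) and Cacng5 by -4.59 ± 0.87 (adjusted p = 0.000413), with 5 and 7 counts under DRB against 414 and 378. Sim1, Nipal4 and Cacng5 were above every DRB library in every triptolide library. Cubn had 3 counts against 173 (adjusted p = 1.8e-06), and Tnn differed by -4.09 ± 0.85 (adjusted p = 0.002). The gasdermin row had 6, 0, 0 and 1 counts under DRB.

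After 1 h, triptolide alone already left 86 of the 144 genes higher than untreated cells at 1 h and 1 lower in activated cells (17.7% higher of all genes), with 74 not overlapping (18.2%). Without replicate 2 it was 52. Coro6, Cyp26a1 and Meltf had the smallest p-values, with 193 counts against 2, 142 against none and 145 against 1. DRB left 27 genes higher at 1 h (13.7%), with 24 not overlapping (15.7%), and triptolide in resting cells 37 higher and 1 lower (8.32%), with 4 not overlapping (4.12%). Without replicate 4 these were 8 and 1, and the DRB count was 9 without replicate 2 and 15 with spike-in scaling. With only the 2 groups fitted, 18 of 19 tested, 2 of 3 and 0 of 0 were higher, against 9.78%, 6.15% and 13.9% of all genes. The resting comparison rests on the library of 6300 exon counts as its replicate 3. Trim69 had 21 counts against 3 with DRB (adjusted p = 0.028), and Sim1 had 49 against none with triptolide (adjusted p = 1.65e-05) and 1 against none with DRB.

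In cells without inhibitor, 3 h of culture left 1 gene higher and 0 lower in activated cells (6.05% and 7.56% of all genes), and 0 higher and 0 lower in resting cells (3.03% and 3.36%). The 1 gene was Slc7a3, higher by 1.104 ± 0.319 (edgeR adjusted p = 0.0113), and it was not called without replicate 4. At an unadjusted p under 0.05 edgeR gave 3 higher and 3 lower in resting cells, and DESeq2 called 0 there. With the replicate block 2 genes were higher in activated cells (Slc7a3 and Rnf152) and 1 in resting cells (Fam83a).

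Activated and resting cells were compared by the difference of their triptolide changes with cycloheximide. It was called for 1 of the 144 genes, Skida1, higher in activated cells, against 4.22% of all genes higher and 3.3% lower. Skida1 had 29, 11 and 41 counts with triptolide and cycloheximide against 1 in activated cells, and 2 against 3 in resting cells, a log2 difference of 5.48 ± 1.81 (adjusted p = 0.0458) whose size depends on the prior count. At an unadjusted p under 0.05 there were 6 genes higher and 7 lower. It was not called without replicate 3 or replicate 4, without the 2 shallowest libraries or with spike-in scaling. With the replicate block 8 genes were called, of which 3 (Skida1, P2ry1 and Cnga1) were higher in activated cells.

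The reads lay in introns as well as in exons. In the arms that chose the genes 80.5%, 71.9% and 81.9% of the reads of the selected genes were in introns at 3 h, against 28.4%, 35.95% and 37.3% in expressed genes. Per kilobase, the median ratio of intron to exon density was 0.372, 0.565 and 0.551 for activated triptolide, DRB and resting triptolide, and 0.0275, 0.0462 and 0.0330 in 6214 expressed genes of at least 20 CPM. Sim1 had 1411, 370 and 562 intron counts at 3 h of triptolide, and Olfr1394 had none with 28, 0 and 67 exon counts at 3 h of DRB. In activated libraries outside the rule, over the 101 genes with exon reads in both groups, the median ratio was 0.370 with triptolide and cycloheximide and 0.246 with cycloheximide alone. It was higher with triptolide for 54 of them. With DRB and cycloheximide it was 0.622 against 0.273, higher for 60 of 94 genes. In resting cells with triptolide and cycloheximide it was 0.532 against 0.0889, higher for 63 of 90. In expressed genes the ratios of these 3 comparisons were 0.0126 against 0.0773, 0.0218 against 0.0773 and 0.0168 against 0.0567. The share of reads in introns, summed over all 144 genes, was 77.9% with triptolide and cycloheximide and 79.8% with cycloheximide. The carrier gene Slc22a14 held 1739 of the 2657 intron counts with cycloheximide, and without it the shares were 77.0% and 57.7%. At 0 and 3 h of triptolide in activated cells they were 82.4% and 76.8%, and 63.5% and 76.2% without Slc22a14. The direction of this share thus depended on that 1 gene.

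Introns were tested as exons were, over 10750 genes, and 112 of the 144 had enough intron reads. Of the 144, 104 were higher in introns with triptolide and cycloheximide in activated cells (25.3% of all genes) and 1 more with harringtonine (21.6%). Sh3d21 was lower with cycloheximide and Fam83e with harringtonine, against 28.8% and 26.7% of all genes. With DRB 91 (19.1%) and 92 (20.3%) were higher, and in resting cells 101 (24.3%) and 102 (23.2%), with 0 lower in these 4 (23.4%, 24.5%, 23.1% and 24.9% of all genes). With only the 2 groups fitted, 41 of 41 tested and 55 of 56 were higher with DRB (24.5% and 27.7%), and 59 of 59 and 63 of 63 in resting cells (31.6% and 30.4%). The summed intron counts were 38737 against 2657 with triptolide and cycloheximide and 8254 against 2657 with DRB and cycloheximide. Without Slc22a14 they were 36603 against 918 and 7229 against 918. Exons and introns of the same gene were both higher for 100, 99, 49, 59, 80 and 77 genes in these 6 comparisons, against 11.5%, 10.7%, 7.75%, 10.6%, 11.4% and 11.5% of the 8693 genes tested in both. Spike-in scaling left 47 and 60 genes higher in introns with DRB (1.33% and 1.75% of all genes), with the median of all genes lower by 2.79 to 3.47 on the log2 scale over the 6 comparisons.

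Within the exons, reads of the selected genes lay in 3′ UTRs for 31.6%, 29.97% and 33.1% in the 3 arms at 3 h, against 23.1%, 23.3% and 22.2% in all genes. Coding sequence took 62.0% against 70.7% in activated triptolide. Reads thus lay in coding exons, UTRs and introns of these genes.

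The nearest gene upstream on the same strand was looked up in GENCODE M21, and it was called expressed at 5 CPM or more at 0 h. It was expressed for 91 of 113 genes (80.5%) selected by triptolide in activated cells, for 42 of 52 (80.8%) by DRB and for 48 of 55 (87.3%) by triptolide in resting cells, against 29.2%, 29.3% and 29.3% of the other near-silent genes. Its annotated end lay within 10 kb of the selected gene in 19.5%, 50.0% and 23.6%, against 5.02%, 5.01% and 5.01%. The median gap was 24367, 6824 and 17042 bp, and these upstream genes were long, with medians of 91894, 94220.5 and 119058 bp against 13355 bp for the other near-silent genes in activated triptolide. Those neighbours of the other near-silent genes were mostly not expressed. All genes expressed at 0 h of activated triptolide had a median length of 24847 bp. Upstream on the other strand the shares with an expressed neighbour were 53.1%, 53.8% and 47.3%, and downstream on the same strand 49.6%, 51.9% and 43.6%, against 29.5% to 32.9%. Of the 144 genes, 15 follow another of the 144, and 119 overlap no other gene. No test was made of these shares, which describe the genes of an annotation.

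Foxi1 starts 18725 bp after the end of Dock2, a Rac activator of leukocytes that had 1011 ± 170 CPM (SD, n = 3, as for the levels below) at 0 h and 3066 ± 183 CPM at 3 h of triptolide in activated cells. Nipal4 follows Cyfip2, of the WAVE actin complex, by 27341 bp, Slc2a2 follows the kinase gene Tnik by 22044 bp, and Cacng5 follows Prkca, protein kinase C alpha, by 18331 bp. Sim1 lies 43268 bp after the helicase gene Ascc3, and Il13ra1 35547 bp after Dock11. Meltf, Apoa1 and Coro6 lie close, 3680 bp after Dlg1, 4385 bp after Sik3 and 2190 bp after Ssh2. On the TMM scale, relative to the typical mRNA, Cyfip2 went from 550 ± 94.5 to 1439 ± 343 CPM between 0 and 3 h of triptolide. Tnik went from 65.0 ± 9.75 to 246 ± 47.8 CPM, Sik3 from 236 ± 66.7 to 674 ± 231 CPM and Ascc3 from 302 ± 51.4 to 489 ± 78.9 CPM.

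The genes that DRB alone had selected, by the thresholds of the rule, lie nearer to their neighbours. Of these 21, 20 start within 10 kb of the upstream gene, expressed or not, with a median gap of 3923 bp and a median upstream length of 8180 bp. The medians were 24766 and 91894 bp for the 92 triptolide-only genes and 11941 and 142908 bp for the 31 genes of both. The upstream gene was expressed for 16 of the 21. For the nearest expressed upstream gene the median gaps were 5544 bp (DRB-only, up to 107826 bp), 43734 bp (triptolide-only) and 12743 bp (both). The median lengths were then 20388, 94205.5 and 187731 bp. Ribosomal protein genes precede 4 of the 21, and none of the other genes. Trim69 follows B2m, the light chain of MHC class I, by 7616 bp, and B2m stood at 1333 ± 75.6 CPM at 0 h of the DRB arm. Rasl11a follows Rpl21 by 8038 bp, Colec11 follows Rps7 by 7476 bp, Fam83e follows Rpl18 by 375 bp and 1700001P01Rik follows Rpl23 by 1608 bp. Amh lies 318 bp after Sf3a2, Cracr2b 350 bp after Pnpla2 and Msh4 1148 bp after Rabggtb. Rabggtb stood at 39.4 ± 23.9 CPM at 3 h of DRB and 10.9 ± 4.23 CPM at 3 h of triptolide, and Pnpla2 at 48.1 ± 28.5 and 18.1 ± 11.6 CPM, so the libraries of both genes spread widely.

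Genes that only triptolide selected include some that start more than 100 kb after the end of the nearest upstream gene. Cyp7a1, the rate-limiting enzyme of bile acid synthesis, starts 120573 bp after Nsmaf and had no counts at 0 h, 2 counts in all at 1 h and 59, 9 and 51 at 3 h of triptolide in activated cells. With triptolide and cycloheximide it had 84 counts against 1 (adjusted p = 1.18e-07). Edn1, which encodes the vessel-constricting peptide endothelin, starts 108938 bp after Hivep1 and had 0, 4 and 50 summed counts at 0, 1 and 3 h. P2ry1, a receptor for ADP, starts 373044 bp after Mbnl1 and had 4, 2 and 102. These 3 genes thus had few counts at 1 h and had 0 to 3 counts at 3 h of DRB. The Ugt1a genes, whose enzymes attach glucuronic acid to drugs and bilirubin, lie 110207 bp (Ugt1a10) to 266778 bp (Ugt1a1) after Dgkd. They had 8.16 to 21.5 CPM at 3 h of triptolide in activated cells, and since they share their last exons the split of reads between them is uncertain.

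Some of the genes follow one another in rows. Behind Fam49b stand Gsdmc4, Gsdmc3, Gsdmc2 and Gsdmc, with 29.3 ± 6.55, 21.8 ± 5.40, 15.9 ± 8.55 and 23.2 ± 3.46 CPM (SD, n = 3) at 3 h of triptolide in activated cells. Behind Dock11 stand Il13ra1 and then Zcchc12 with 30.6 ± 12.5 CPM. Mrc1, the mannose receptor of macrophages, follows Tmem236, another of the genes, and had 9.97 ± 0.41 CPM. Olfr1395 and Olfr1394 lie 45299 and 57402 bp behind the end of Ifi47, an interferon-induced GTPase gene that had 427 ± 97.2 CPM at 3 h of DRB and 59.5 ± 24.6 CPM at 3 h of triptolide. Both receptor genes were at or near 0 with triptolide (0.192 CPM each) and had 28.5 and 23.3 CPM with DRB.

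The share of near-silent genes that the rule selected changed with the gap to an expressed upstream gene. In activated cells with triptolide it was 3.26% under 5 kb, 4.42% at 5 to 10 kb, 5.29% at 10 to 20 kb, 4.23% at 20 to 50 kb, 1.603% at 50 to 100 kb and 1.27% beyond, and 0.276% where the upstream gene was not expressed. With DRB it was 4.29%, 4.84%, 2.33%, 1.41%, 0%, 0% and 0.129%. In resting cells it was 1.92%, 2.90%, 4.40%, 2.52%, 0.849%, 0.155% and 0.0917%. None of the 52 genes selected by DRB had, as its nearest upstream gene, an expressed one farther than 50 kb away. These are descriptions of the genes chosen, and several bins hold under 20 selected genes.

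**Figure D4:**
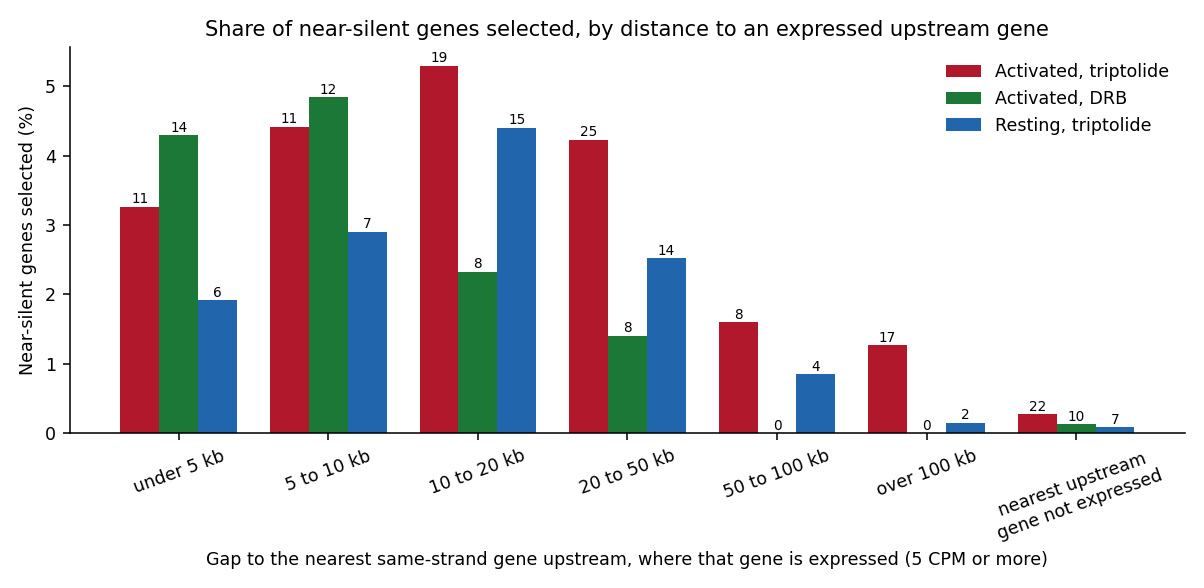
Share of near-silent genes selected (percent, vertical axis) by the gap to an expressed upstream gene on the same strand, for the 3 arms, with the number of selected genes above each bar. In activated cells with triptolide the share is 5.29% at 10 to 20 kb and 0.276% where the upstream gene is not expressed.

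The time course was read in groups the rule did not use, as the level at 1 h in percent of that at 3 h, by the gap to the nearest expressed upstream gene, passing over silent genes between. Medians are over genes with 10 or more counts at 3 h. In activated cells with triptolide and cycloheximide the medians were 46.2% under 10 kb, 68.8% at 10 to 20 kb, 24.6% at 20 to 50 kb and 12.4% beyond 50 kb, over 23, 19, 28 and 43 genes. With harringtonine they were 56.2%, 65.3%, 27.8% and 10.6%. Genes far from the expressed gene thus had less of their 3 h level at 1 h than genes near it. In resting cells with triptolide and cycloheximide the medians were 43.4%, 28.997%, 17.6% and 18.5%, with 8 to 16 genes a class. DRB with cycloheximide gave 31.9%, 14.6%, 10.7% and 19.96%, of which the last rests on 3 genes and those between on 8 and 9. Genes that lie in one row share their upstream gene, and no test was made of this order.

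**Figure D5:**
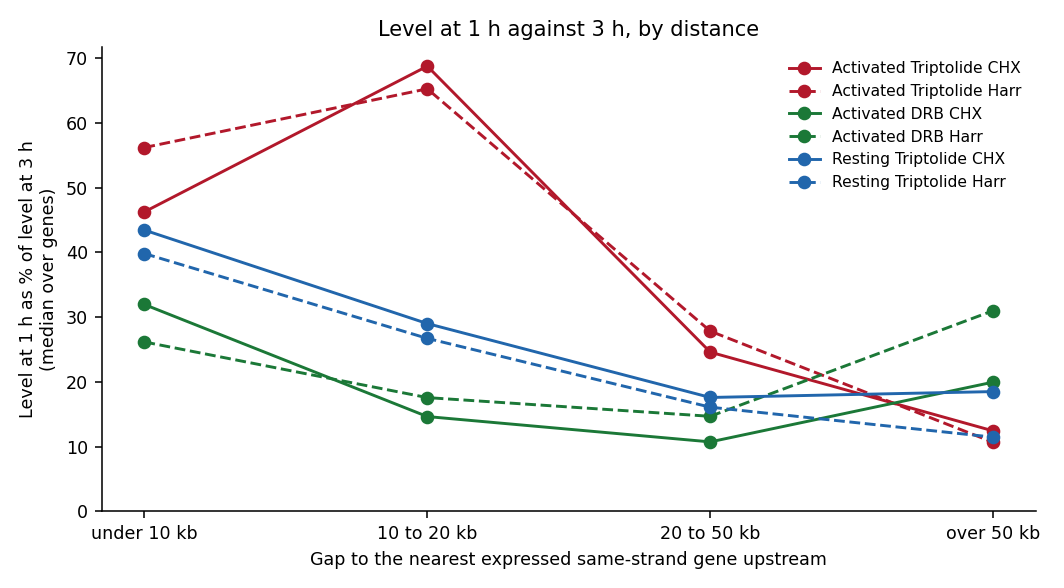
Median level at 1 h as a percentage of that at 3 h (vertical axis) by gap to the nearest expressed upstream gene (horizontal axis), for 6 pairs of groups with a transcription and a translation inhibitor. Medians are over genes with 10 or more counts at 3 h. Both activated triptolide lines fall from 46.2% and 56.2% under 10 kb to 12.4% and 10.6% beyond 50 kb.

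The list also holds Adgre1, the macrophage protein F4/80. It starts 30659 bp after the end of Vav1, a signalling gene of lymphocytes, and had 11.7 CPM at 3 h of triptolide in activated cells. The other myeloid markers at 0 and 3 h there were Itgam with 3.98 and 10.2 CPM, Lyz2 with 0 and 1.62, Cd68 with 0.935 and 1.12, Csf1r with 0.362 and 0.922 and S100a8 with 0 at both times.

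A list of 33 genes of 3′-end cutting and termination, of which 32 were tested, was looked at beside the 144. With triptolide and cycloheximide in activated cells 4 were higher and 10 lower, against 27.1% and 25.8% of all genes. The median log2 change was -0.08 against 0.09 over all genes. With DRB and cycloheximide 3 were higher and 10 lower (22.3% and 23.2% of all genes), with a median of -0.29 against 0.04. In resting cells with triptolide and cycloheximide it was 5 and 10 (22.9% and 23.9%), with -0.06 against 0.04. Ppp1r10, a subunit of a termination phosphatase complex, had a log2 change of -4.54 ± 0.24 (adjusted p = 4.76e-28) and the RNA kinase Clp1 of -3.78 ± 0.31 (adjusted p = 7.09e-18) with triptolide and cycloheximide. Xrn2, the exonuclease that follows the polymerase, was higher by 0.50 ± 0.18 (adjusted p = 0.0151). This rise is relative to the typical mRNA and smaller than the 1.54 by which the median of all genes fell with spike-in scaling. Between DRB and triptolide, both with cycloheximide, 0 of the 32 were called by edgeR, against 1.37% of all genes higher and 0.717% lower.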

How the data were processed

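RNA of mouse CD4+ T cells was sequenced in 35 groups of 3 libraries. The submitters' processing notes name Bowtie 1.1.1.0, TopHat2 2.0.13, HTSeq and the build mm10. The strand setting is not given in the sources used here. The authors deposited raw read counts over exons, coding sequence, introns and 92 ERCC RNAs, whole numbers with no scaling. Of the exon counts and the counts that HTSeq set aside, 75.8 to 97.3% per library were for no gene, mainly for alignment at several places. A read that aligned at several places may be counted there more than once, so these are not shares of reads.

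The members and lists were chosen with earlier results of these data known. The rule was applied to the deposited exon counts. Differences were tested with edgeR 4.0.16 in R 4.3.3 (TMM factors, filterByExpr, robust quasi-likelihood F test), with all libraries as 35 group means and p-values adjusted by Benjamini-Hochberg over all genes tested in each of 13 comparisons. CPM values use TMM-scaled library sizes. Against a control group without counts the fold is a lower bound with a floor of 3 counts over the group. With 1 to 3 control counts the ratio is given with an exact 95% binomial interval, and both cover counting error only, since PCR reads without molecular identifiers are not independent molecules. Fitted log2 changes are given for 4 or more control counts, or against another treated group. Neighbours and the gene models are from GENCODE M21 on GRCm38, and promoters are from RefSeq on GRCm38.p6. The neighbour of a gene is the one whose annotated end lies nearest before its start on the same strand.

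The genes named are, in each arm, the 8 selected genes with the highest level at 3 h without predicted symbols, up to 3 called genes with the smallest p in each comparison, their upstream neighbours, those at the thresholds and, of the list of 3′-end genes, the 2 most abundant and the 2 of smallest p. Further genes that illustrate rows, functions or differences between DRB and triptolide were chosen after their values were seen. A few of the selected genes are counted but not reported here by name. On data simulated for the comparison of triptolide and cycloheximide with cycloheximide in activated cells (9711 genes), 97 of 100 genes changed 4-fold were recovered, 23 of 100 changed 2-fold and 40 of 60 near-silent genes raised to 20 counts, with 9 false calls. The simulation gave every gene a dispersion (spread between libraries beyond counting) of 0.1. It drew the libraries independently and held only some of the 35 groups, so its figures need not hold for the fit of all libraries.

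Alternatives were RLE factors, library size alone, ERCC spike-in scaling, DESeq2 1.42.0, no filter, only the groups compared, replicate numbers as blocks (separately for activated and resting cells), each replicate left out, the 2 shallowest libraries left out and coding-sequence counts. For the neighbours, the level that counts as expressed, the distance and the threshold at 3 h were varied, and passing over silent genes was added after seeing the data, as was leaving Slc22a14 out of the intron sums. Same-numbered libraries deviated together: the correlation of their deviations was over 0.1 in 33 of 39 pairs and in every pair of 11 of the 13 comparisons, with a range of -0.40 to 0.71. The labels do not say what a number shares. Python 3.11.15 with matplotlib 3.10.9 drew the figures.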

Additional observations from a re-analysis of the deposited data

Results flagged for a closer look

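The change that triptolide makes beside cycloheximide differed between activated and resting cells for 1 of the 144 genes by a test of the difference itself. This was Skida1, with a log2 difference of 5.48 ± 1.81, activated minus resting (edgeR quasi-likelihood test, adjusted p = 0.0458, n = 3 libraries per group). It had 81 counts with triptolide and cycloheximide against 1 with cycloheximide in activated cells, and 2 against 3 in resting cells, so the size of the difference depends on the prior count. Its nearest upstream gene, Dnajc1, ends 146602 bp before it. A cause was not tested.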

How the results depend on the processing

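Of 222 recomputed counts, 181 stayed within 1.5 times of their main value and 41 did not. Fitting only the groups compared, where fewer of the 144 genes pass the filter on low counts, left fewer genes higher. In exons the counts were then 52 and 51 with triptolide in activated cells (cycloheximide, harringtonine), 10 and 26 with DRB, 27 and 33 in resting cells, 18, 2 and 0 at 1 h (triptolide, DRB, resting triptolide) and 11 for DRB against triptolide. In introns they were 41 and 55 with DRB and 59 and 63 in resting cells. Spike-in scaling gave 33 and 45 with DRB, 66 and 59 in resting cells, 15 with DRB at 1 h, 47 and 60 in introns with DRB, and 0 for activated against resting. DRB against triptolide gave 17 genes with DESeq2 and 25 with coding-sequence counts, against 43. Without the 2 shallowest libraries activated against resting gave 0.

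With each replicate left out, the exon counts at 3 h ranged over 103 to 116, 107 to 122, 32 to 58, 44 to 77, 64 to 93 and 71 to 91 in the 6 comparisons in the order of the text. At 1 h they ranged over 52 to 83, 8 to 32 and 1 to 37. They were 0 to 1 in untreated activated cells, 6 to 35 for DRB against triptolide and 0 to 1 for activated against resting.

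With the replicate block, 2 genes were higher in untreated activated cells, 1 in untreated resting cells, 66 differed between DRB and triptolide and 8 between activated and resting cells. The pairing moved no other count by over 1.5 times.

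Scaling moved the split of all genes: with triptolide and cycloheximide in activated cells 2912 were higher and 2775 lower, with RLE factors 1704 and 3904 and with DESeq2 1603 and 3811. Slc7a3 reversed with spike-in scaling, to -0.46 and -0.44 with triptolide and to -0.82 and -0.59 with DRB in activated cells at 3 h. Of 2237 recomputed values of named genes, 2101 kept direction and call, 132 kept direction and lost the call and 4 reversed. An expressed upstream gene lay within 10 kb for 29.2% of the 144 genes, within 5 kb for 14.6% and within 20 kb for 45.8%. The causes were not tested. On the simulated data, with 3 libraries a group, 23 of 100 genes changed 2-fold were recovered. The fit of all libraries did call some smaller changes, such as the log2 change of 0.50 of Xrn2 with triptolide and cycloheximide in activated cells.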

Other observations

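Slc7a3 was selected by the resting arm alone, from 1, 2 and 1 exon counts at 0 h to 5, 15 and 11 at 3 h of triptolide. In activated cells it was not near-silent, with 25, 15 and 23 counts at 0 h of the triptolide arm and 59, 17 and 34 at 3 h. It is also the 1 gene that was higher after 3 h of culture without inhibitor in activated cells. P2ry1 shows the opposite case, with 4 counts in all at 0 h in activated cells and 8, 11 and 6 in resting cells, where it had 1, 12 and 13 counts at 3 h of triptolide.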
